A study of Mus musculus with 4 samples.

Results

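Axon guidance ligands and receptors steer growing axons, migrating neural crest cells and sprouting vessels by attraction and repulsion. The genes described here are the semaphorins of classes 3 to 7 with their neuropilin and plexin receptors, the ephrins with the Eph receptors, the Slits with the Robo receptors, and the netrins with Dcc and the Unc5 receptors. Members were taken by a pattern of gene symbols for these families, which matched 68 of the 46983 gene IDs in the deposited tables, 34 ligands and 34 receptors. RNA-seq was performed on larynx tissue, dissected at the vocal folds, of mouse embryos at E10.5 (32 to 35 somites), as 2 pools of Shh-/- tissue and 2 pools of Swiss Webster WT tissue, each of 3 larynxes. The mutant pools carry the Shhtm1amc null allele, which was maintained on a Swiss Webster background and removes Shh function from every cell of the embryo. The sample labels write the mutant genotype as Shh+/-, while the series' design text and the paper write Shh-/-, which is used here. No source states whether the pools came from separate litters, so the p-values measure the spread between these pools. Whole tissue was sequenced, and a higher or lower value can reflect more or fewer cells of a type as well as more or less RNA per cell, which cannot be told apart here.

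Secreted class 3 semaphorins are bound by neuropilins, which pass the signal to plexins, whereas membrane-bound semaphorins bind plexins directly. Ephrin-A ligands are anchored by a lipid tail and ephrin-B ligands span the membrane, and both signal through Eph receptor tyrosine kinases on neighboring cells. Slits are secreted repellents that act through Robo receptors, and netrins attract through Dcc or repel through Unc5 receptors. In the pharyngeal region these families are known for guiding cranial nerves and streams of neural crest cells, and several members, such as Ephb4, Efnb2, Plxnd1 and Robo4, are known for roles in blood vessels.

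Shh itself was lower but present in the libraries labeled as mutant, at 10.4 and 10.8 TPM against 23.7 and 42.1 TPM in WT (limma adjusted p = 0.0895), where a value covers the whole gene and not the deleted part. Ptch1, the HH receptor that is itself a target of the pathway, measured 12.9 and 13.8 TPM in Shh-/- tissue and 57.8 and 55.1 TPM in WT tissue, where TPM is a share of each library's transcripts corrected for gene length (limma adjusted p = 0.0319, and 0.0699 to 0.132 with any 1 pool left out). The libraries held 1.095 to 2.474 gigabases of aligned sequence, the least in Shh-/- pool 1. Of markers of other cell types, 11 of 12 neuron, 8 of 10 endothelial, 5 of 9 neural crest and 7 of 9 muscle genes tested were higher in mutant tissue at an unadjusted p under 0.05. Of all tested genes, 17.5% were higher and 7.22% lower at this limit. The other neuron gene, Isl1, was lower, at 68.3 and 57.3 TPM in Shh-/- against 93.1 and 115.7 TPM in the WT pools. The summed level of 12 neuron genes was 939.0 and 1015 TPM in Shh-/- against 341.9 and 290.9 TPM in the WT pools, and that of 10 endothelial genes was 379.2 and 439.0 TPM against 255.7 and 241.2 TPM. For 10 neural crest and Schwann precursor genes it was 187.5 and 170.6 TPM against 112.4 and 88.2 TPM, and for 10 muscle genes 177.9 and 277.8 TPM against 68.6 and 79.1 TPM. The 10 foregut epithelial genes summed to 605.0 to 693.8 TPM in Shh-/- and 642.1 to 657.3 TPM in the WT pools. Of these, 1 was higher and 3 lower at the same limit, including the airway gene Nkx2-1, at 6.16 and 3.61 TPM against 15.9 and 17.9 TPM, and Foxa2, at 5.34 and 9.12 TPM against 29.2 and 39.8 TPM. The 10 foregut mesenchyme genes included 2 higher and 5 lower, and their median difference on the log2 scale, Shh-/- minus WT, was −1.51. Foxf1, a HH-responsive gene of this mesenchyme, was at 0.848 and 9.57 TPM against 72.3 and 64.6 TPM, and Foxf2 at 0.241 and 1.24 TPM against 20.3 and 20.0 TPM (limma adjusted p = 0.0383 for Foxf2). The sum of this list was 319.5 and 301.6 TPM against 352.9 and 335.8 TPM. Of 8 erythroid genes, 0 were higher and 0 lower at the same limit. All 8 had a negative difference on the log2 scale, with a median of −0.40. Their sum was 8983 and 13569 TPM in Shh-/- against 12192 and 13815 TPM in the WT pools, with overlap. No gene of these lists was at 0 in every pool. The part of these cell types in the results below was not tested.

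Of the 68 genes, 59 had a mean of at least 1 TPM over the 4 pools and were tested as log2(TPM + 1) with limma, a linear model that shares its estimate of the spread across the 16972 genes tested. No guidance gene passed a Benjamini-Hochberg adjusted p of 0.05 over all tested genes, 0 higher and 0 lower, where 0.56% of all tested genes passed as higher and 0.725% in either direction. At an unadjusted p under 0.05, 27 were higher in the Shh-/- pools (45.8%) and 5 were lower (8.47%), against 17.5% and 7.22% of all tested genes. Both Shh-/- pools lay above both WT pools for 34 of the 59 genes (57.6%) and below both for 6 (10.2%), while the same held for 38% and 22.7% of all tested genes, 60.7% in either direction. The median log2 fold change of TPM + 1 (log2FC), Shh-/- minus WT throughout, was 0.45 for the guidance genes and 0.08 for all tested genes. Centring each pool on its median lowered every log2FC by 0.13 and left 42 positive and 17 negative of the 59, against 45 and 14. Before centring, 9895 of the 16972 tested genes were positive. Leaving out Shh-/- pool 1 or WT pool 6 brought the 27 to 8 in either case (13.6%, against 9.88% and 8.32% of all tested genes).

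**Figure D1:**
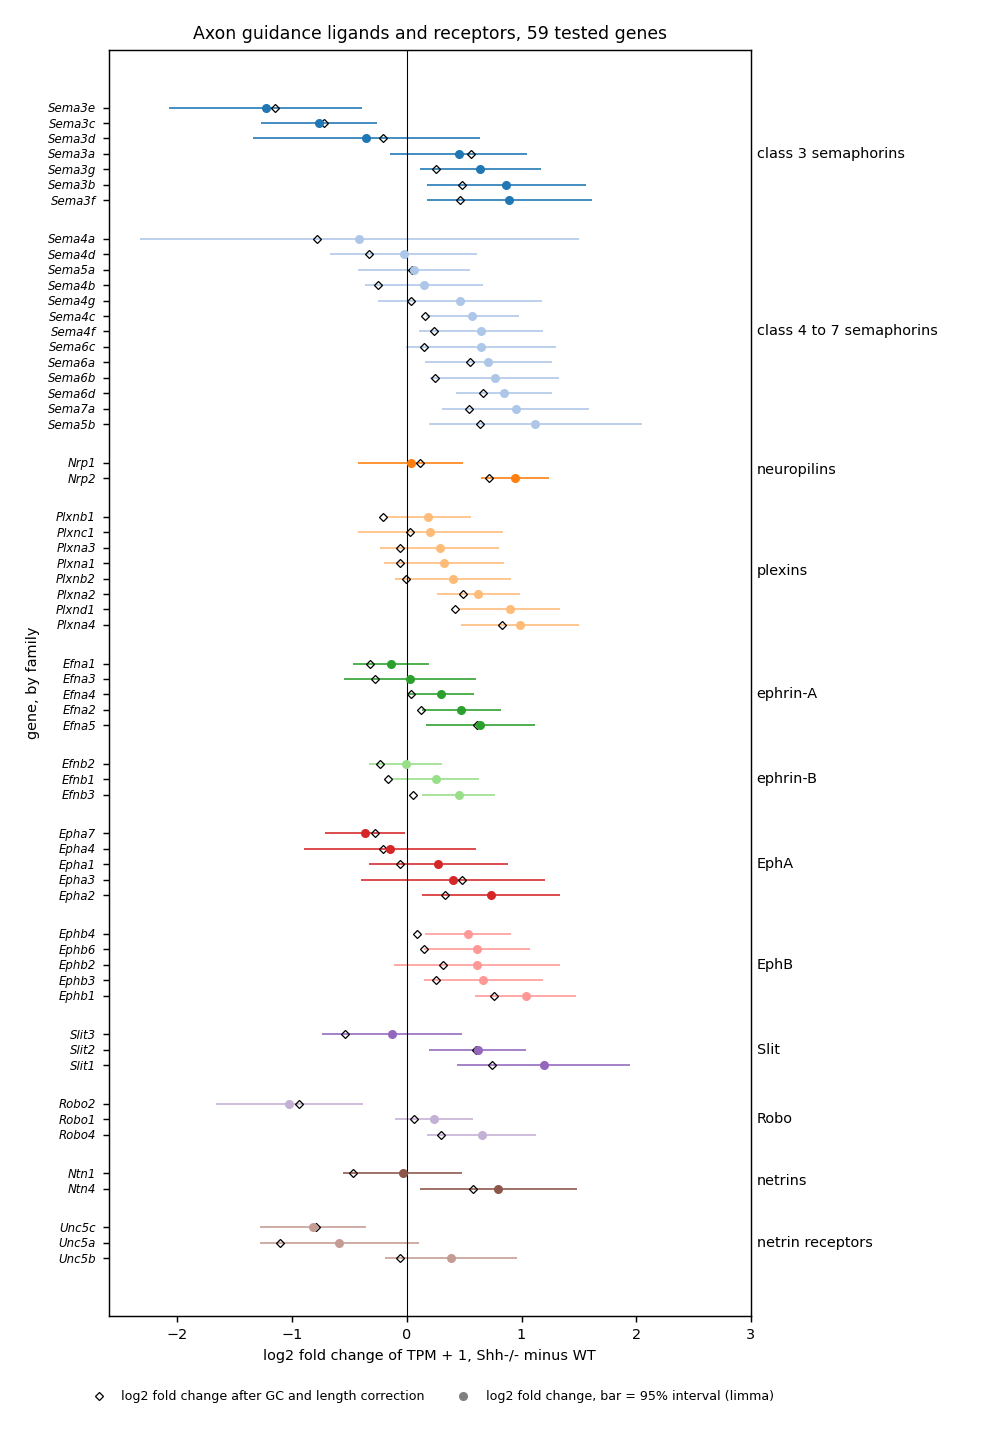
Log2FC of TPM + 1 (horizontal axis, Shh-/- minus WT) for the 59 tested guidance genes, grouped by family and ordered within it. Filled points with bars are limma's estimates with 95% intervals, and open diamonds are the estimates after correction of each pool for GC content and transcript length. Of the filled points 45 lie above 0 and 14 below, against 36 and 23 diamonds. Over all genes, 9895 of 16972 were above 0 before the correction and 8152 of 16887 after it.

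The guidance genes have transcripts rich in G and C, and GC content moved with the pools. The median GC content of the longest transcript was 56.1% for the tested guidance genes and 49.6% for all tested genes, and with all genes split by GC into 4 bins of equal size, 34 of the 59 fell in the highest bin. In that bin the median log2FC was 0.33 for all genes and 0.50 for the guidance genes, and in the lowest bin it was −0.17 for all genes and −0.36 for 10 guidance genes. Across the 59 genes, the deviation of WT pool 6 from the mean of the 4 pools had a Pearson correlation of −0.617 with GC content, compared with 0.387 and 0.382 for the Shh-/- pools and 0.0119 for WT pool 4. Over all 16887 genes with a GC value it was −0.397 for WT pool 6, 0.195 and 0.322 for the Shh-/- pools and −0.0976 for WT pool 4. The RNA integrity number was 9 in WT pool 6 and 7.7 to 8 in the other pools, and its part in these values was not tested. These genes share libraries and are not independent points, so the correlations are descriptions. For 21 of the 59 genes (35.6%) the 4 values ran from Shh-/- pool 1 as the highest, through Shh-/- pool 2 and WT pool 4, to WT pool 6 as the lowest, an order seen in 18.8% of all tested genes.

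With each pool corrected for GC content and length, 10 guidance genes had an unadjusted p under 0.05 in the higher (16.9%) and 7 in the lower direction (11.9%), against 9.72% and 9.45% of all genes (19.2% in either direction), and 0 passed an adjusted p of 0.05. The median of the guidance genes was then 0.09 and that of all genes −0.01. The values below name 24 guidance genes that were higher and 4 that were lower, by a rule of an unadjusted p under 0.05, pools that did not overlap and a log2FC of at least 0.5 in size. Pools that do not overlap are thus a condition for naming these genes and give them no further support. All 28 held their sign after the correction. Their median went from 0.75 to 0.49 for the higher genes, of which 9 were still at an unadjusted p under 0.05, and from −0.92 to −0.86 for the lower genes, of which all 4 were. The 9 were Sema6a, Sema6d, Nrp2, Plxna2, Plxna4, Plxnd1, Efna5, Ephb1 and Slit2, and the 4 were Sema3c, Sema3e, Robo2 and Unc5c.

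**Figure D2:**
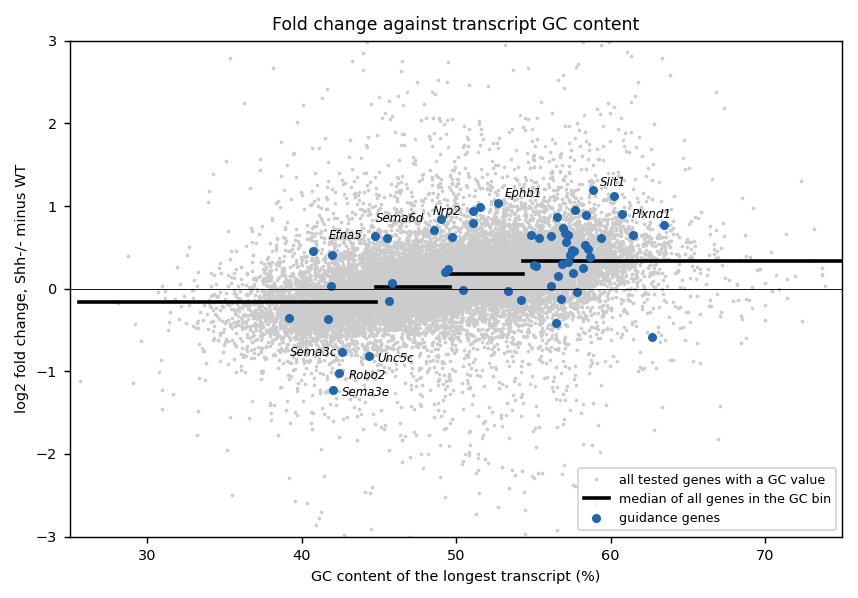
Log2FC (vertical axis) against the GC content of the longest transcript in percent (horizontal axis). Gray points are all tested genes with a GC value, with 45 outside the plotted ranges; black lines are their medians in 4 bins of GC content with equal numbers of genes, from −0.17 in the lowest to 0.33 in the highest, and blue points are the guidance genes. The genes Robo2, Unc5c, Sema3c and Sema3e lie at 42.0 to 44.4% GC and below the line of their bin.

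The sequence before the start sites was examined because the GLI factors, which act at the end of the HH pathway, bind a known motif. RefSeq start sites on GRCm38.p6 (the mm10 assembly) were found for 58 of the 68 genes. No entry was found for Dcc, Efnb3, Ntn1, Plxna1, Plxna4, Sema3b, Sema3f, Sema6a, Slit1 and Unc5d. The GLI motif GACCACCCA was not present on either strand in the 250 bases before any start of the 58 genes, and 0.255% of 27025 genes held it. Its shorter core CCACCCA, which lies within it, was found in 7 of the 58 genes (12.1%) and in 9.29% of all genes. The GC box GGGCGG was found in 43 of the 58 (74.1%) and in 35.4% of all genes, and the median GC content was 64.4% for the guidance windows and 52.4% for all windows. The TATA motif TATAAA was found for Efnb2 and Slit2 only, 3.45% of the guidance genes, and for 14.3% of all genes. A match is a description of these letters and not evidence of binding. The 7 matches to the core are shown because they include Sema3c and Robo2, which were lower in the Shh-/- pools, and Sema3g and Plxna2, which were higher. Each is written 5′ to 3′ on the strand of the gene, with the core, or its reverse complement TGGGTGG, in capitals and 11 bases on each side.
Sema3c, chr5:17574584-17574612, plus strand: caggcgctcccTGGGTGGggcggcggccc
Robo2, chr16:75092895-75092923, minus strand: ccgagcactacCCACCCAagtagctgtga
Plxna2, chr1:194619690-194619718, plus strand: tgccgggttctTGGGTGGaccagctaggg
Sema3g, chr14:31217801-31217829, plus strand: ccgcccagcacTGGGTGGagccactgcct
Sema4a, chr3:88461351-88461379, minus strand: ctttgggaaggTGGGTGGggtctcacagg
Sema5a, chr15:32244673-32244701, plus strand: aaggtcaggggTGGGTGGggcgctcagtt
Sema6c, chr3:95160292-95160320, plus strand: ccgtttagctcTGGGTGGaccgtgcgctc
The Robo2 match precedes a RefSeq start outside the limits that the deposited tables give for this gene (chromosome 16, 73892306 to 74411825). The Sema3c and Plxna2 matches lie inside the deposited limits of their genes (chromosome 5, 17574281 to 17730268, and chromosome 1, 194618218 to 194816869). The longer windows below precede starts at the deposited limits of 3 genes that lie on both sides of the comparison, with a GC box in capitals where present. Ephb1 and Sema6d were higher and Robo2 lower.
Ephb1, chr9:102354694-102354943, minus strand: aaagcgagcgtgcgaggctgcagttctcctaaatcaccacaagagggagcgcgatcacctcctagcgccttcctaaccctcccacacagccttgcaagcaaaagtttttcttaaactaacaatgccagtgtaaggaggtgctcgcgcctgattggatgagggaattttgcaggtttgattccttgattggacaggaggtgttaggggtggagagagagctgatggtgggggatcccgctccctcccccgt
Sema6d, chr2:124089719-124089968, plus strand: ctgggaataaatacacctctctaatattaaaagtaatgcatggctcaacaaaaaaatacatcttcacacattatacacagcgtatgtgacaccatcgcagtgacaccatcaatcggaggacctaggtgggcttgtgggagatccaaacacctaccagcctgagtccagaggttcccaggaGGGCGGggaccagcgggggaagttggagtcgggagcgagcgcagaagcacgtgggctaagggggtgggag
Robo2, chr16:74411826-74412075, minus strand: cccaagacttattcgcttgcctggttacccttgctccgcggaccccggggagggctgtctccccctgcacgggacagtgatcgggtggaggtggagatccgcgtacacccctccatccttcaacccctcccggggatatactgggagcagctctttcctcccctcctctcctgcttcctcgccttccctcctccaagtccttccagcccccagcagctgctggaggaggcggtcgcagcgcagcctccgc
The GC content of these windows was 54% for Ephb1, 52.4% for Sema6d and 65.6% for Robo2.

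The secreted class 3 semaphorins were split in direction. All 7 were tested, with 3 above and 2 below WT at an unadjusted p under 0.05, beside 17.5% and 7.22% of all tested genes. After the GC correction 1 was above (Sema3a) and 2 below (Sema3c and Sema3e), beside 9.72% and 9.45% of all genes. Sema3f, a ligand of neuropilin 2 and the most abundant member, measured 102.3 and 60.8 TPM in Shh-/- and 47.7 and 36.9 TPM in the WT pools (log2FC 0.89 ± 0.28 SE, limma adjusted p = 0.156). The groups did not overlap, although the 2 Shh-/- pools were further apart from each other than the lower of them was from WT, and the log2FC was 0.47 after the GC correction. Sema3b measured 14.0 and 8.30 TPM against 5.65 and 5.33 TPM (log2FC 0.87, adjusted p = 0.154), and Sema3g 9.11 and 8.81 TPM against 6.40 and 4.52 TPM (0.64, adjusted p = 0.16). For these genes, too, neither mutant pool overlapped with WT, and the corrected log2FC values were 0.48 and 0.25.

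Sema3c and Sema3e ran the other way. Sema3c, which is known for guiding neural crest cells into the cardiac outflow tract (chromosome 5, 17574281 to 17730268), was at 34.0 and 31.4 TPM in Shh-/- and 47.0 and 67.5 TPM in the WT pools (log2FC −0.77 ± 0.20 SE, limma adjusted p = 0.124). Neither mutant pool reached the lower WT pool, and the log2FC was −0.72 after the correction. Sema3e, which binds Plxnd1 without a neuropilin (chromosome 5, 14025276 to 14256689), was at 0.665 and 0.769 TPM against 2.06 and 4.31 TPM (log2FC −1.23 ± 0.33 SE, limma adjusted p = 0.13). It passed the filter on low values through the WT pools alone, and its WT pools were further apart from each other than the lower of them was from the mutant pools. The remaining members had adjusted p values of 0.291 for Sema3a, at 30.0 and 21.6 TPM against 15.7 and 21.5 TPM, and 0.585 for Sema3d, whose groups overlapped. For Sema3a the log2FC was 0.45, and it was 0.56 after the correction (limma adjusted p = 0.187). The summed level of the class was 215.4 and 145.2 TPM in Shh-/- and 142.7 and 171.7 TPM in the WT pools, with overlap. Within each pool, the ratio of Sema3c to Sema3f, a pair chosen after the values were seen, was 0.332 and 0.516 in the Shh-/- pools and 0.986 and 1.83 in WT.

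**Figure D3:**
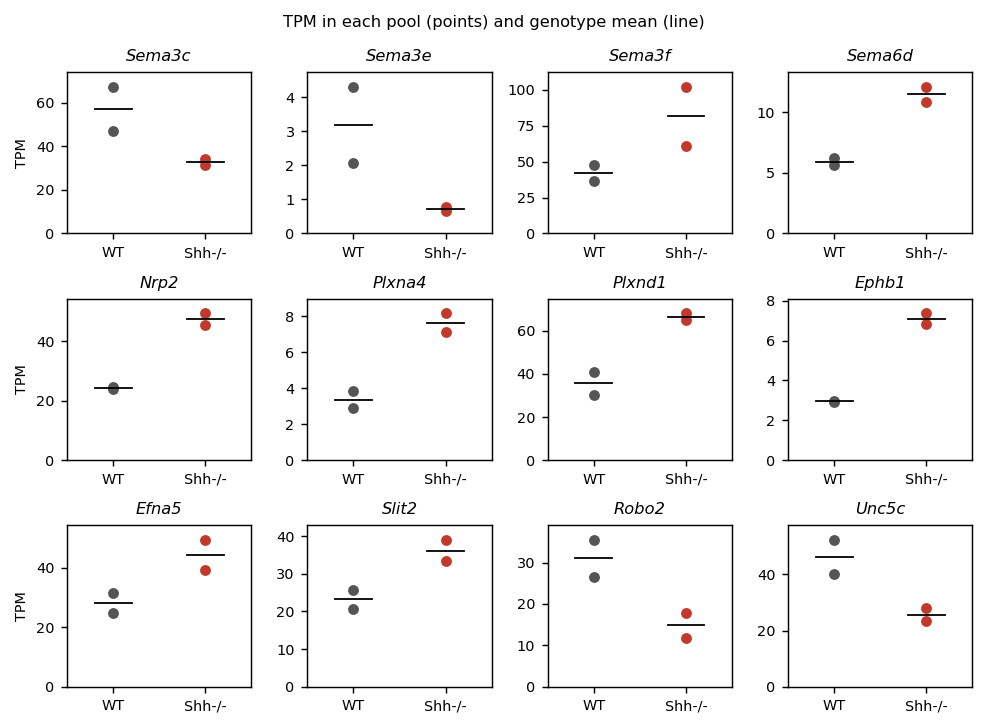
TPM (vertical axis, from 0, with its own scale in each panel) of 12 guidance genes in the 2 WT and 2 Shh-/- pools. Points are pools and lines are genotype means. No panel has overlapping groups, which the rule for naming these genes required. Sema3c, Sema3e, Robo2 and Unc5c are the genes with the Shh-/- points below.

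Among the membrane-bound semaphorins of classes 4 to 7, all 13 were tested, with 7 above and 0 below WT at an unadjusted p under 0.05. The shares of all tested genes were 17.5% and 7.22%. After the GC correction 2 were above and 0 below, beside 9.72% and 9.45% of all genes. Sema6d, a transmembrane ligand of class A plexins (chromosome 2, 124089969 to 124667770), was at 10.8 and 12.1 TPM in Shh-/- and 5.63 and 6.23 TPM in the WT pools (log2FC 0.85 ± 0.16 SE, limma adjusted p = 0.0895). Its pools were close within each genotype and far apart between them, and the log2FC was 0.67 after the correction and 0.77 to 0.92 with 1 pool left out. Sema6a, of the same class, was at 28.3 and 19.9 TPM against 12.8 and 15.5 TPM (log2FC 0.71, adjusted p = 0.151, corrected 0.55). Sema7a, the lipid-anchored semaphorin, was at 5.58 and 3.77 TPM against 2.16 and 1.67 TPM (log2FC 0.95, adjusted p = 0.129, corrected 0.54).

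The other 4 of the 7 were Sema4c, Sema6b, Sema4f and Sema5b, and all 7 had a smaller log2FC after the GC correction. Sema4c, the most abundant of these classes, was at 55.9 and 46.2 TPM against 37.2 and 31.0 TPM (log2FC 0.57, adjusted p = 0.136), and its log2FC was 0.16 after the correction. Sema6b was at 3.79 and 3.08 TPM against 1.81 and 1.40 TPM (0.77, corrected 0.25), and Sema4f at 2.73 and 2.45 TPM against 1.15 and 1.43 TPM (0.65, corrected 0.23). Sema5b was at 4.38 and 1.90 TPM against 1.02 and 0.639 TPM (1.12, corrected 0.64), and its WT mean was under 1 TPM. All 4 had groups that did not overlap, as the naming rule required, with adjusted p values of 0.136 to 0.161. The other 6 members had adjusted p values of 0.204 to 0.955, and the WT pools of Sema4a were far apart, at 7.81 and 0.945 TPM.

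The neuropilins, co-receptors for class 3 semaphorins and for VEGF, differed from each other in their values. Nrp2 (chromosome 1, 62703285 to 62818695) was at 49.4 and 45.5 TPM in Shh-/- and 24.1 and 24.4 TPM in the WT pools, for a log2FC of 0.94 (SE 0.11, limma adjusted p = 0.0577), the lowest adjusted p of the 59 genes. Its values were tight within each genotype, the log2FC was at least 0.88 with any 1 pool left out and 0.72 after the GC correction, and its adjusted p was 0.052 to 0.21 over the alternatives. Nrp1 was at 77.0 and 103.5 TPM against 80.6 and 94.1 TPM, so that its groups overlapped, and the 95% interval of its log2FC was −0.42 to 0.49. Within each pool, the ratio of Nrp2 to Nrp1 was 0.642 and 0.440 in the Shh-/- pools and 0.298 and 0.260 in WT, a ratio chosen after the values were seen. The summed neural crest and endothelial genes, of cell types known to express Nrp2, had ratios of means of 1.79 and 1.65 between the genotypes, and their part in this value was not tested.

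All 8 tested plexins had positive log2FC values, as had 9895 of all 16972 tested genes. Of the 8, 3 had an unadjusted p under 0.05, beside 17.5% of all tested genes that were higher at this limit. These 3 were Plxna2, Plxna4 and Plxnd1, each with mutant pools above both WT pools. After the GC correction 4 of the 8 were positive and 4 negative, while these 3 kept values of 0.42 to 0.83. Plxnd1, the receptor of Sema3e that is known from endothelium (chromosome 6, 115954811 to 115995005), was at 65.0 and 68.2 TPM in Shh-/- and 40.9 and 30.3 TPM in the WT pools (log2FC 0.90 ± 0.17 SE, limma adjusted p = 0.0894). Its mutant pools were above both WT pools. The summed endothelial genes had the same ratio of means as above, 1.65, and their part was not tested. Plxna4, a partner of neuropilins in sensory and sympathetic axons (chromosome 6, 32144268 to 32588192), was at 7.10 and 8.16 TPM against 3.83 and 2.91 TPM (log2FC 0.99 ± 0.20 SE, limma adjusted p = 0.0964). Antisense genes named Plxna4os1 to Plxna4os3 are listed beside it, and whether the counting used strand is not given in the sources used here. Plxna2 was at 21.4 and 21.0 TPM against 14.4 and 12.5 TPM (log2FC 0.62, adjusted p = 0.108).

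The most abundant plexin, Plxnb2, was at 94.8 and 74.2 TPM in Shh-/- and 72.9 and 54.6 TPM in the WT pools, where the lower mutant pool was almost level with the higher WT pool (log2FC 0.41, limma adjusted p = 0.268, corrected −0.01). Plxna1, Plxna3, Plxnb1 and Plxnc1 had log2FC values of 0.19 to 0.32, with adjusted p values of 0.363 to 0.62. The plexins summed to 297.7 and 256.3 TPM in Shh-/- and 216.2 and 176.3 TPM in the WT pools, a ratio of means of 1.41. Plxnb3 was under 0.03 TPM in every pool.

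**Figure D4:**
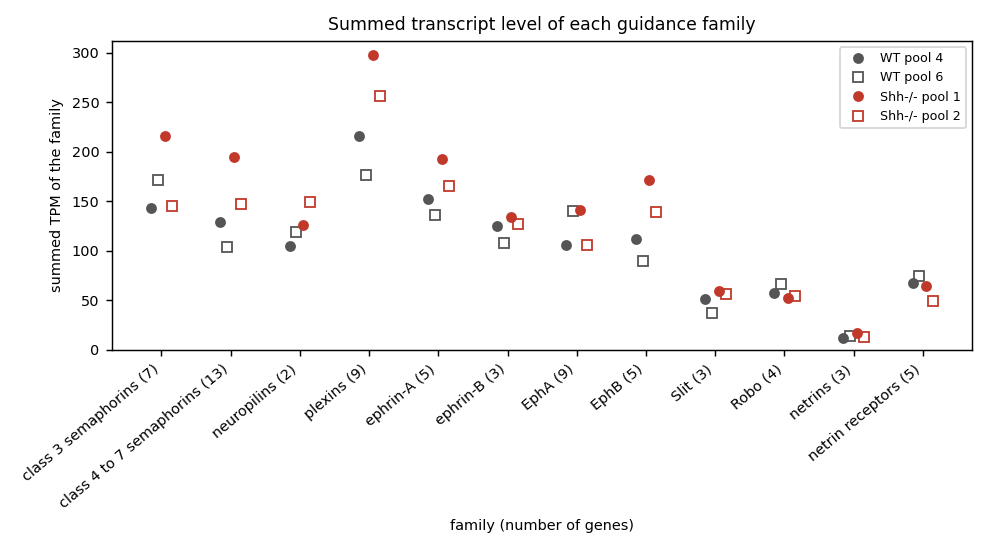
Summed TPM (vertical axis) of each guidance family in the 4 pools, with the number of genes in the family in parentheses on the horizontal axis. Red marks are Shh-/- and gray marks WT pools. The sums of class 4 to 7 semaphorins, neuropilins, plexins, ephrin-A, ephrin-B, EphB and Slit lie higher in both Shh-/- pools than in both WT pools. Those of Robo and the netrin receptors lie lower, and those of class 3 semaphorins, EphA and netrins overlap.

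The ephrin-A ligands gave 3 of 5 genes above WT and 0 below at an unadjusted p under 0.05, beside 17.5% and 7.22% of all tested genes. After the GC correction 1 was above and 1 below, beside 9.72% and 9.45% of all genes. Efna5 (chromosome 17, 62604184 to 62881317), a ligand known from retinal axon mapping, was at 49.3 and 39.2 TPM in Shh-/- and 31.4 and 24.7 TPM in the WT pools (log2FC 0.64 ± 0.18 SE, limma adjusted p = 0.141). Its transcript is low in GC (44.8%), and the log2FC was 0.61 after the correction. Efna4, the most abundant of the class, was at 57.2 and 52.3 TPM against 45.7 and 43.0 TPM, and Efna2 at 43.9 and 37.5 TPM against 29.9 and 27.9 TPM, with log2FC values of 0.30 and 0.48. Neither group overlapped, but the corrected log2FC values were 0.03 and 0.12. Efna1 and Efna3 overlapped between the genotypes, with adjusted p values of 0.529 and 0.944.

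Of the 3 ephrin-B ligands, Efnb3 alone had an unadjusted p under 0.05, beside 17.5% of all tested genes that were higher at this limit. It was at 34.0 and 34.4 TPM in Shh-/- and 26.2 and 23.3 TPM in the WT pools (log2FC 0.45, limma adjusted p = 0.134, corrected 0.05). Efnb2, the most abundant ephrin-B and a marker of arteries, was at 68.0 and 60.6 TPM against 68.7 and 61.0 TPM, with a 95% interval of its log2FC of −0.33 to 0.31. Its groups overlapped almost fully.

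Without the GC correction, EphB receptors were the family with the highest ratio of summed TPM. By median log2FC, another measure, they were at 0.61 without the correction, below class 4 to 7 semaphorins (0.65) and Slit (0.62). After the correction their median log2FC was 0.25, below those of Slit (0.60) and the neuropilins (0.42). At an unadjusted p under 0.05, 4 of the 5 EphB genes were higher before the correction and 1 after it. The shares of all genes that were higher were 17.5% and 9.72%. The 5 members together measured 171.3 and 139.3 TPM in Shh-/- and 112.0 and 89.8 TPM in the WT pools, a ratio of means of 1.54. All 5 had positive log2FC values with and without the GC correction, under quantile normalization, under median centring and in FPKM. Over all genes, 9895 of 16972 were positive before the correction and 8152 of 16887 after it. Ephb1, which takes part in ipsilateral routing of retinal axons (chromosome 9, 101922128 to 102354693), was at 6.84 and 7.38 TPM against 2.97 and 2.93 TPM (log2FC 1.04 ± 0.17 SE, limma adjusted p = 0.0765). Its pools agreed within each genotype, and the log2FC was 0.99 to 1.08 with 1 pool left out and 0.76 after the correction. Ephb4, the venous receptor of Efnb2 and the most abundant EphB, was at 91.3 and 77.0 TPM against 62.8 and 53.0 TPM (log2FC 0.53 ± 0.14 SE, limma adjusted p = 0.134). Its groups did not overlap, but the log2FC was 0.09 after the correction.

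Ephb3 was at 34.1 and 27.7 TPM in Shh-/- and 22.2 and 16.2 TPM in the WT pools (log2FC 0.67, limma adjusted p = 0.15), and Ephb6, whose kinase domain is inactive, at 10.3 and 8.93 TPM against 6.54 and 5.38 TPM (0.61, adjusted p = 0.146). Their log2FC values were 0.25 and 0.15 after the correction. Ephb2 was at 28.7 and 18.3 TPM against 17.6 and 12.2 TPM (0.61, adjusted p = 0.251), with the mutant pools far apart.

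The EphA receptors gave no common direction. Of 9 members 5 were tested, with 1 above and 1 below WT at an unadjusted p under 0.05, beside 17.5% and 7.22% of all tested genes. After the GC correction 0 were above and 0 below, beside 9.72% and 9.45% of all genes. The sum of the family was 141.1 and 105.6 TPM in Shh-/- and 106.2 and 139.6 TPM in the WT pools. Epha2 was at 8.53 and 7.65 TPM against 5.52 and 3.58 TPM (log2FC 0.73 ± 0.23 SE, limma adjusted p = 0.157, corrected 0.33). Epha7 was at 33.0 and 31.8 TPM against 38.5 and 46.0 TPM (log2FC −0.37, adjusted p = 0.189). Epha4, the most abundant EphA and a receptor for both ephrin classes, was at 41.3 and 32.2 TPM against 30.7 and 53.4 TPM, so that the WT pools enclosed the mutant pools. Epha3 and Epha1 also overlapped, with adjusted p values of 0.441 and 0.483.

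In the Slit and Robo families 2 of 3 ligands were higher, and of 3 receptors Robo4 was higher and Robo2 lower, each with an unadjusted p under 0.05. Of all tested genes, 17.5% were higher and 7.22% lower at this limit. After the GC correction Slit2 and Robo2 were still within it, and Slit3 was within it in the lower direction. Of all genes, 9.72% were higher and 9.45% lower after that correction. Slit2 (chromosome 5, 47983138 to 48307733), the most abundant Slit, was at 39.0 and 33.3 TPM in Shh-/- and 25.8 and 20.8 TPM in the WT pools (log2FC 0.62 ± 0.16 SE, limma adjusted p = 0.13), and the correction left 0.60. Slit1 was at 2.79 and 4.57 TPM against 1.3 and 0.751 TPM (log2FC 1.20 ± 0.29 SE, limma adjusted p = 0.119, corrected 0.74). Both had mutant pools above both WT pools. Slit3 was at 17.1 and 18.3 TPM against 24.5 and 15.5 TPM, with overlap and an adjusted p of 0.753.

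Robo2, an axonal receptor for Slits (chromosome 16, 73892306 to 74411825), was at 11.9 and 17.8 TPM in Shh-/- and 26.5 and 35.5 TPM in the WT pools (log2FC −1.03 ± 0.25 SE, limma adjusted p = 0.117). Neither mutant pool reached the lower WT pool, and the log2FC was −0.94 after the correction and −1.30 to −0.75 with 1 pool left out. Robo1, the most abundant Robo, was at 33.5 and 28.8 TPM against 25.7 and 26.6 TPM, for a log2FC of 0.24 (limma adjusted p = 0.316). The ratio of Robo2 to Robo1 within a pool was therefore 0.354 and 0.618 in the Shh-/- pools and 1.03 and 1.33 in WT, and this ratio was also chosen after the values were seen. Robo4, the endothelial Robo, was at 6.80 and 7.96 TPM against 4.69 and 3.98 TPM (log2FC 0.65, limma adjusted p = 0.14, corrected 0.30). Robo3, the receptor of commissural axons, was at 0.0303 TPM in WT pool 6 and listed at 0 in the other pools.

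Of the netrins, Ntn1, the floor-plate attractant and the most abundant member, was at 10.9 and 8.95 TPM in Shh-/- and 8.80 and 11.7 TPM in the WT pools, with overlap and a 95% interval of the log2FC of −0.56 to 0.48. Ntn4, a basement membrane netrin, was at 5.91 and 3.86 TPM against 2.77 and 1.95 TPM (log2FC 0.80 ± 0.27 SE, limma adjusted p = 0.167, corrected 0.58). Ntn5 was at 0.0612 TPM in Shh-/- pool 2 and listed at 0 elsewhere.

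The netrin receptors had a median log2FC of −0.59 over 3 tested members, the only negative median of the 12 families before the GC correction. After it their median was −0.79, and those of ephrin-B and EphA were also negative, at −0.17 and −0.06. Unc5c, a receptor for repulsion from netrin (chromosome 3, 141465216 to 141834924), was at 27.9 and 23.4 TPM in Shh-/- and 40.2 and 52.3 TPM in the WT pools (log2FC −0.82 ± 0.18 SE, limma adjusted p = 0.104). Neither mutant pool reached the lower WT pool, and the log2FC was −0.79 after the correction. Its adjusted p was 0.0885 to 0.363 over the alternatives. Unc5a was at 0.681 and 1.36 TPM against 1.78 and 2.23 TPM (log2FC −0.59, adjusted p = 0.248, corrected −1.10), also without overlap. At an unadjusted p under 0.05, 0 of the 3 receptors were higher and 1 lower, beside 17.5% and 7.22% of all tested genes. After the correction 0 were higher and 2 lower, Unc5a and Unc5c, beside 9.72% and 9.45% of all genes. Unc5b, which is known from arterial endothelium, was at 35.4 and 24.4 TPM against 24.8 and 20.0 TPM, with an adjusted p of 0.331. The ratio of Unc5c to Unc5b within a pool, again chosen after the values were seen, was 0.790 and 0.957 in the Shh-/- pools and 1.62 and 2.62 in WT. Dcc, the netrin receptor for attraction, was at 0.280 and 0.182 TPM against 0.136 and 0.0268 TPM, below the level tested.

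The 9 genes that were not tested, Plxnb3, Epha5, Epha6, Epha8, Epha10, Robo3, Ntn5, Dcc and Unc5d, reached at most 0.941 TPM in any pool. Of the 59 tested genes, 2 had a mean under 1 TPM in one of the genotypes, Sema3e in Shh-/- and Sema5b in WT.

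Other guidance genes outside these families were examined as a list of 26 symbols, of which 22 were tested. At an unadjusted p under 0.05, 7 were higher and 3 lower, beside 17.5% and 7.22% of all tested genes, and after the GC correction 5 were higher and 4 lower, beside 9.72% and 9.45%. Draxin alone passed an adjusted p of 0.05. Draxin, a secreted ligand that binds netrin and Dcc, was at 22.0 and 17.3 TPM in Shh-/- and 4.92 and 3.70 TPM in the WT pools (log2FC 1.96, limma adjusted p = 0.0462), and its log2FC was 1.63 after the correction for GC content. Its adjusted p was 0.0988 to 0.161 with any 1 pool left out, 0.0513 with a pseudocount of 0.1, 0.0519 with eBayes without trend and 0.148 with no filter on low TPM. The cell adhesion genes Cntn2 and L1cam, known from axons, had log2FC values of 1.26 and 0.93, with adjusted p values of 0.0894 and 0.121 and corrected log2FC values of 0.89 and 0.63. The adhesion gene Nrcam was lower, at 1.20 and 2.04 TPM against 5.02 and 5.37 TPM (log2FC −1.26, adjusted p = 0.0895). Chl1 and Ntng1 were also lower, with log2FC values of −0.69 and −0.66 (limma adjusted p = 0.153 and 0.138, corrected −0.55 and −0.77).

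Of 45 cytoplasmic proteins that carry guidance signals to the cytoskeleton, 42 were tested, with 11 above and 2 below WT at an unadjusted p under 0.05 and 0 past an adjusted p of 0.05, beside 17.5% and 7.22% of all tested genes at the unadjusted limit. After the GC correction 2 were above and 2 below, beside 9.72% and 9.45% of all genes. Srgap3 was higher, at 8.48 and 6.35 TPM in Shh-/- and 2.37 and 2.64 TPM in the WT pools (log2FC 1.25, limma adjusted p = 0.0778, corrected 1.07). Limk1 and Crmp1 were also higher, with log2FC values of 0.78 and 0.77 (corrected 0.37 and 0.42). Ablim1, an actin-binding protein and one of the 2 lower genes, was at 3.58 and 5.89 TPM against 11.9 and 20.8 TPM (log2FC −1.58, limma adjusted p = 0.103). The median log2FC of the transducers was 0.22 and was 0.06 after the correction.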

How the data were processed

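Reads of stranded poly(A) libraries were aligned by the authors, per their methods and processing notes, to mm10 with HISAT2 2.1.0 and assembled with StringTie 1.3.6. The deposited tables give coverage (signal) per gene, FPKM (coverage scaled by the library's aligned bases) and TPM (FPKM scaled to a fixed sum), and read counts were not used here. Aligned bases were derived as the ratio of coverage to FPKM. TPM carries no counts, so precision is given by the spread between pools. TPM was summed per gene ID, filtered at a mean of 1 and compared as log2(TPM + 1), a scale that understates differences of low genes, with limma 3.58.1 in R 4.3.3 (eBayes with trend, no covariates, Benjamini-Hochberg adjustment over 16972 genes). The smallest exact permutation p with 2 pools a side is 0.33. GC content and length are those of the longest GENCODE M21 transcript, and the correction removed natural splines with 5 degrees of freedom for each, for 16887 genes. The fit was tested on simulated data. Genes were named at an unadjusted p under 0.05 with non-overlapping pools and a log2 fold change of at least 0.5 in size, or as the most abundant of a family. Other members are named as one of a few in their family. The genes named from the other lists are some, not all, of those that met the same limits. Members and gene lists were chosen with earlier results of these data known.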

Additional observations from a re-analysis of the deposited data

How the results depend on the processing

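The 28 named guidance genes kept the sign of their log2 fold change in all 413 values over 15 alternatives. Much of this was fixed by the naming rule, because non-overlapping pools cannot change sign with 1 pool left out. Several other alternatives changed only the test, the threshold or the set of genes, and not the log2 fold change. With all 4 pools in the fit, 0 guidance genes passed an adjusted p of 0.05 under any alternative. At the main setting 5 passed an adjusted p of 0.10 (Nrp2, Ephb1, Plxnd1, Sema6d and Plxna4). The 27 genes higher at an unadjusted p under 0.05 became 10 once GC content and transcript length were corrected for, and the median moved from 0.45 to 0.0886. With 1 pool left out they numbered 8 to 27, with 8 without Shh-/- pool 1 and 8 without WT pool 6 (13.6%, against 9.88% and 8.32% of all genes), and the median was 0.25 to 0.59; the lower genes numbered 4 to 5. In these fits the lone pool is assumed to vary like the other genotype. Over all tested genes, 95 were called higher and 28 lower. These counts were 53 and 16 with a pseudocount of 0.1, 63 higher with a mean TPM of at least 5, 670 and 188 at an adjusted p under 0.10, and 0 and 0 with no filter on low TPM, where 11.8% and 5.75% of 28524 genes had an unadjusted p under 0.05. With 1 pool left out they were 0 to 4 and 0 to 12. The cause was not tested. No paired analysis was possible because the genotypes share no replicate numbers.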
